A study of Mus musculus with 32 samples.

Results

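Hippocampal RNA of the inbred mouse strain _129S1/SvImJ_ was set against that of the inbred strain DBA/2J on an Affymetrix mouse array, U74Av2. The comparison uses the 4 arrays titled with the first strain and the 4 titled with the second, 8 of the 32 arrays of a series that covers 8 strains. Each strain was represented by 1 pool of hippocampal RNA from 6 mice that had received no treatment, and the labels give neither sex nor age. From each pool cRNA, the labelled copy that is put on an array, was synthesised on 2 occasions: the first preparation is on arrays 1 and 2, the second on arrays 3 and 4. All arrays of a strain thus repeat 1 pool, and every p-value below measures the spread between preparations and hybridisations, not between animals. The question posed by the design is which transcripts differ between strains that also differ in behaviour.

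_129S1/SvImJ_ belongs to a family of strains from which many embryonic stem cell lines for gene targeting were made. DBA/2J is one of the oldest inbred strains and is often used as a poor performer in hippocampus-dependent learning tasks. Fast excitatory transmission in the hippocampus runs through glutamate receptors: AMPA receptors (Gria genes) carry most of the current, while NMDA receptors (Grin genes) admit calcium when glutamate and depolarisation coincide. That calcium activates calmodulin and its kinase CaMKII (Camk2a and its relatives), which drives the lasting strengthening of synapses known as long-term potentiation. Scaffold proteins of the postsynaptic density hold receptors and kinases in place, and growth factors such as BDNF, acting on its receptor TrkB, sustain the change.

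A probe set is the group of oligonucleotides that reads 1 transcript, and its signal is a brightness on a linear scale that the authors deposited already scaled. Signals are given below as deposited, in the order of arrays 1 to 4; differences are log2 of signal, _129S1/SvImJ_ minus DBA/2J, with the standard error (SE) of the fit, and strain levels are mean log2 signals ± SD over the 2 preparations. A difference of 1 on the log2 scale is 2-fold. Probe sets counted as called had a Benjamini-Hochberg adjusted p under 0.05 in limma's moderated test over all 7453 tested probe sets. The arrays of both strains were alike in overall brightness, with medians of 33.7 to 39.2 in _129S1/SvImJ_ and of 35 to 39.85 in DBA/2J. The median correlation over probe sets was 0.958 between arrays of 1 preparation, 0.937 between preparations of 1 strain, and 0.923 between the strains. The ratio of 3′ to 5′ probe sets for actin, a measure of RNA integrity, was 1.13 to 1.23 in _129S1/SvImJ_ and 1.26 to 1.34 in DBA/2J, while that for Gapdh was 0.824 to 0.892 in _129S1/SvImJ_ and 0.779 to 0.988 in DBA/2J. The part of that actin difference in the results was not tested.

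The strains differed at 100 of 7453 tested probe sets (1.34%). The level was higher in _129S1/SvImJ_ at 62 of them (0.832%) and lower at 38 (0.51%). Of the 100, 77 (1.03% of all tested) differed by 2-fold or more, 50 of them higher and 27 lower in _129S1/SvImJ_, and 15 were higher and 11 lower by 4-fold or more. The median size of a called difference was 1.345 on the log2 scale, and the smallest was 0.605. All tested probe sets together had a median difference of -0.042. An unadjusted limma p under 0.05 was met by 544 of the 7453, the share to set beside such counts in the lists below. The called probe sets with 1 gene symbol, 86 in number, stood for 74 genes. With 1 probe set standing for each gene, 70 of 5660 genes (1.24%) were called, 41 higher (0.724%) and 29 lower (0.512%) in _129S1/SvImJ_. Arrays of the same number carry the same preparation number, and in these strains the same day, in the labels. The fit holds all strains, and in FVB/NJ and BALB/cByJ some arrays carry other days than the same numbers do here. With the preparation number as a block 261 probe sets (3.5%) were called, which included all 100; 159 (2.13%) were higher and 102 (1.37%) lower in _129S1/SvImJ_. Without preparation 1 or 2 of _129S1/SvImJ_ 49 and 54 were called, and without preparation 1 or 2 of DBA/2J 41 and 56. The scatter of strain levels shows the called probe sets on either side of the line of equal signal.

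**Figure D1:**
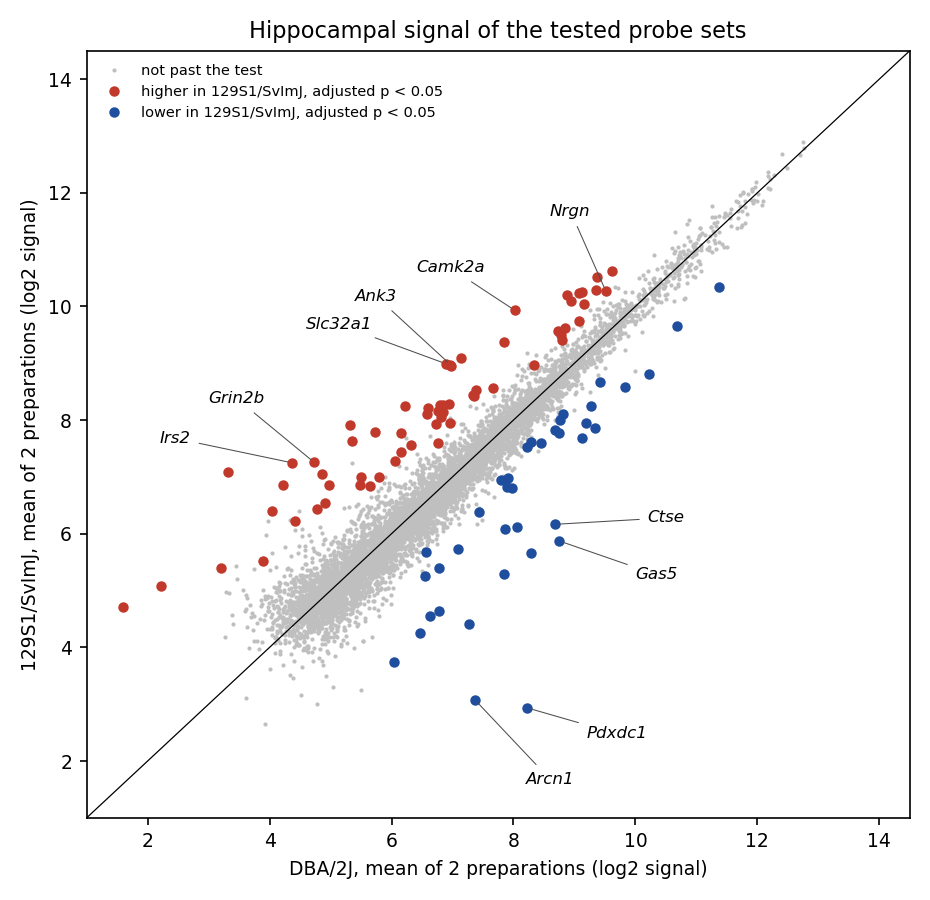
Mean log2 signal of each tested probe set in _129S1/SvImJ_ plotted against its mean in DBA/2J, each mean over 2 preparations. Coloured points are the 62 probe sets called higher and the 38 called lower in _129S1/SvImJ_; the 7453 points otherwise follow the line of equal signal.

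Among glutamate receptors, the NMDA receptor subunit Grin2b was the member that differed past the threshold, and it was higher in _129S1/SvImJ_. Grin2b encodes GluN2B, the subunit that gives NMDA receptors slow decay and binds CaMKII. Its signal was 150.9, 184.5, 133.4 and 149.0 on the _129S1/SvImJ_ arrays, against 23.4, 16.8, 36.5 and 34.2 on the DBA/2J arrays. Every _129S1/SvImJ_ array was far brighter than the brightest DBA/2J array, and 1 DBA/2J array lay below 21.3, the mean signal under which probe sets were not tested. The levels were 7.26 ± 0.17 in _129S1/SvImJ_ and 4.73 ± 0.59 in DBA/2J (n = 2 preparations each), a difference of 2.53 ± 0.26 (SE), 5.79-fold, with a limma adjusted p of 9.018e-05. With an offset of 64 added to each signal before log2, the difference was 1.25 and still passed (adjusted p = 0.0001986). The difference on the 4 days lay between 1.87 and 3.46. Its same sign on each day follows from the lack of overlap, and 2128 of the 7453 tested probe sets (28.6%) had the same sign on all 4 days. In the 6 strains outside this comparison Grin2b lay between 6.50 and 7.36, all nearer to _129S1/SvImJ_, so DBA/2J was the strain with the low reading.

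Grin2a, which encodes GluN2A, the subunit of faster NMDA receptors that grows in share as the brain matures, ran in the same direction. It had signals of 79.7, 88.3, 81.6 and 104.8 in _129S1/SvImJ_, against 48.0, 62.5, 47.8 and 41.7 in DBA/2J. The arrays of the strains did not overlap. The difference of 0.83 ± 0.21 (SE) missed the threshold (limma adjusted p = 0.08405) and passed it with the preparation block (adjusted p = 0.01588). In the other 6 strains Grin2a lay between 6.15 and 6.78, all nearer to the 6.46 ± 0.10 of _129S1/SvImJ_ than to the 5.63 ± 0.21 of DBA/2J. Grin2d and Grin2c, the other NMDA subunits tested, had differences of -0.50 ± 0.48 and 0.22 ± 0.42 (SE), and their arrays overlapped.

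The AMPA receptor subunits did not pass the test. Gria1, which encodes GluA1, had signals of 1746.8, 1729.3, 1582.7 and 1682.3 in _129S1/SvImJ_, against 1410.3, 1385.8, 1487.1 and 1614.1 in DBA/2J, a difference of 0.19 ± 0.15 (SE, limma adjusted p = 0.9956). Array 4 of DBA/2J reached into the _129S1/SvImJ_ range. The other probe set tested for Gria1 gave 0.05 ± 0.41 (SE, adjusted p = 0.9959), with overlapping arrays. Gria2 encodes GluA2, the subunit that keeps AMPA receptors closed to calcium. It had 3153, 2959, 2376.4 and 2462.5 in _129S1/SvImJ_, against 2538.3, 2559.7, 2536.7 and 2592.9 in DBA/2J, so that preparation 1 of _129S1/SvImJ_ lay above and preparation 2 below all DBA/2J arrays. Its difference was 0.09 ± 0.22 (SE), and -0.08 without preparation 1 of _129S1/SvImJ_. The other 2 probe sets tested for Gria2 gave -0.37 ± 0.16 (SE, adjusted p = 0.5758), with every array of _129S1/SvImJ_ below every array of DBA/2J, and 0.03 ± 0.32 (SE), so they did not share a direction. Gria3, which encodes GluA3, had a difference of 0.67 ± 0.40 (SE, limma adjusted p = 0.8907), with 1 array of _129S1/SvImJ_ (65.3) inside the DBA/2J range of 60.5 to 89.1. Gria4 stayed under the signal limit and was not tested.

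Over both lists of glutamate receptors, 13 of 26 genes had a probe set of their own on the array and 11 were tested. Of these 11, 1 was called, against 1.24% of all genes, and 2 with the block, against 3.3%. The median difference of the 11 was 0.224, against -0.045 over all 5660 genes. Of the 11, 9 had a difference above 0, against 2443 of all 5660 genes. The kainate receptor subunits Grik2 and Grik5 and the delta receptor Grid1 had differences of 0.20, 0.28 and 0.31, none past the test. The metabotropic receptors were represented by Grm8 alone, an inhibitory receptor of presynaptic terminals, at -0.29 ± 0.58 (SE). Grin1, the subunit that every NMDA receptor contains, and Grm5 had no probe set with 1 gene symbol and were not analysed here. Of 8 genes of glutamate transport and metabolism, 0 passed limma's test, and 2 had an unadjusted p under 0.05. The nearest was Glud1, glutamate dehydrogenase, with 113.0, 147.8, 265.1 and 210.1 in _129S1/SvImJ_ and 288.3, 263.7, 413.8 and 410.0 in DBA/2J. Each array of _129S1/SvImJ_ lay below the DBA/2J array of the same number, although the ranges touched. Of all tested probe sets, 28.6% had the same sign on all 4 days in one direction or the other. Its adjusted p was 0.4369 without and 0.002232 with the preparation block, the difference being -0.95 ± 0.36 (SE).

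**Figure D2:**
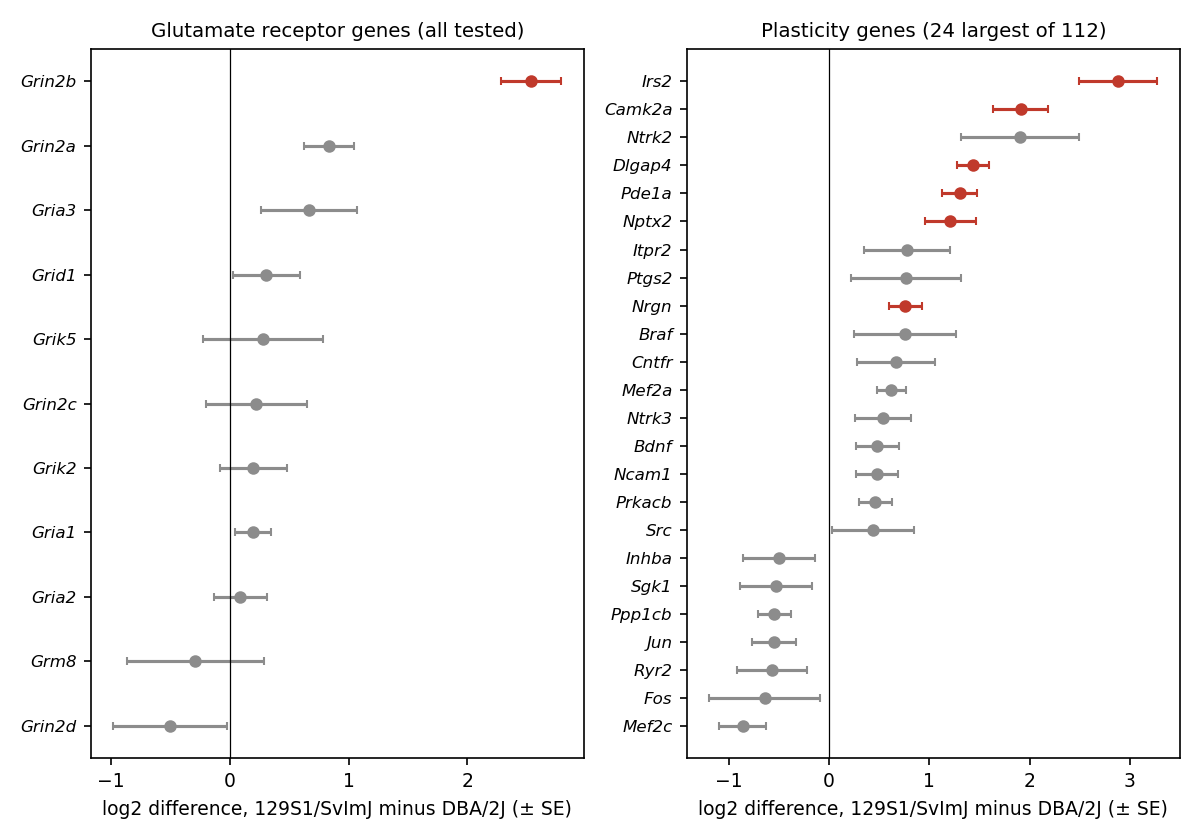
Difference in log2 signal, _129S1/SvImJ_ minus DBA/2J, with its SE, for the 11 tested glutamate receptor genes (left) and the 24 plasticity genes with the largest differences of 112 tested (right). Grin2b at 2.53 stands apart on the left, and on the right Irs2, Camk2a and Dlgap4 lie furthest above 0 among the called genes.

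Of the genes of synaptic plasticity, 6 of 112 tested were called (background 1.24%), and all 6 were higher in _129S1/SvImJ_. The lists were chosen with earlier results of these data known, so this count beside the background is a description. The called genes carry no test as a group. The 6 were Camk2a, Dlgap4, Pde1a, Nptx2, Nrgn and Irs2. Differences of the 112 genes had a median of 0.041, against -0.045 over all genes. Of the 112, 60 lay above and 52 below 0, against 2443 and 3217 of all 5660 genes. With the preparation block 9 were called, 8 higher and 1 lower, against 3.3% of all genes. The 4 lists named 183 genes, of which 121 had a probe set of their own on the array. The part of cell makeup in these values was not tested, since in bulk RNA fewer cells of a type and less RNA per cell cannot be told apart.

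Camk2a, the alpha subunit of CaMKII, was read by a pair of probe sets that agreed. The brighter gave 939.7, 845.1, 1068.9 and 1073.3 in _129S1/SvImJ_, against 187.9, 256.7, 310.8 and 303.7 in DBA/2J. The other gave 654.9, 685.7, 671.7 and 639.4 in _129S1/SvImJ_, against 195.2, 221.3, 255.1 and 258.5 in DBA/2J. On both, all arrays of _129S1/SvImJ_ lay far above all arrays of DBA/2J. The differences were 1.91 ± 0.27 (SE, 3.76-fold, limma adjusted p = 0.001755) and 1.52 ± 0.18 (SE, 2.87-fold, adjusted p = 0.0004118). On the first, 5 of the other 6 strains were nearer to _129S1/SvImJ_, at 9.16 to 9.83, while C57BL/6J at 8.55 was nearer to DBA/2J.

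Nrgn encodes neurogranin, a postsynaptic protein that binds calmodulin when calcium is low and releases it when calcium rises. Its signals were 1407.5, 1286.4, 1143.5 and 1137.4 in _129S1/SvImJ_, against 657.4, 687.9, 776.2 and 812.5 in DBA/2J. The ranges did not overlap, and the gap was wider in preparation 1 than in preparation 2. The difference of 0.76 ± 0.17 (SE, 1.70-fold) passed at an adjusted p of 0.03918 in limma. It no longer passed without preparation 1 or 2 of _129S1/SvImJ_ (adjusted p = 0.371 and 0.0822) or of DBA/2J (0.428 and 0.0930).

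Pde1a, a phosphodiesterase that breaks down cyclic nucleotides when calmodulin activates it, had 270.7, 296.5, 277.1 and 293.0 in _129S1/SvImJ_, against 111.7, 99.8, 120.0 and 131.6 in DBA/2J. The spread within each strain was small beside the gap, and the difference was 1.30 ± 0.18 (SE, 2.47-fold, limma adjusted p = 0.00113). This probe set can read more than 1 transcript, and the other one tested for Pde1a gave 0.62 ± 0.27 (SE, adjusted p = 0.6203), in the same direction.

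Dlgap4 encodes SAPAP4, a postsynaptic scaffold that links PSD-95 to the Shank proteins. It had 302.1, 286.8, 306.2 and 345.4 in _129S1/SvImJ_, against 115.8, 97.8, 117.6 and 128.4 in DBA/2J. The arrays did not overlap, and the difference was 1.44 ± 0.16 (SE, 2.71-fold, limma adjusted p = 0.0001582). Nptx2 encodes a neuronal pentraxin, a secreted protein that gathers AMPA receptors at synapses onto interneurons and is induced by activity. It had 139.4, 165.7, 106.3 and 111.1 in _129S1/SvImJ_, against 51.5, 41.8, 64.6 and 69.0 in DBA/2J, again with no overlap. Its difference of 1.21 ± 0.25 (SE, 2.31-fold, adjusted p = 0.02823) did not pass without preparation 1 of _129S1/SvImJ_ (adjusted p = 0.356) or without preparation 1 of DBA/2J (0.4).

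Irs2, an adaptor that passes on insulin and growth factor signals, had the largest difference among the called plasticity genes. It had 189.8, 135.6, 109.6 and 189.6 in _129S1/SvImJ_, against 12.2, 15.7, 32.6 and 29.0 in DBA/2J. The difference was 2.88 ± 0.39 (SE, 7.37-fold, limma adjusted p = 0.00113). The DBA/2J mean of 4.37 lay under the signal limit of 4.41 on the log2 scale, and with an offset of 64 the difference was 1.34 (adjusted p = 0.0007972). Ntrk2, the gene of the BDNF receptor TrkB, had 67.0, 56.3, 95.3 and 89.2 in _129S1/SvImJ_, against 19.1, 3.7, 44.6 and 52.3 in DBA/2J. The arrays did not overlap, but preparation 1 of DBA/2J was far below preparation 2, and the difference of 1.90 ± 0.59 (SE) had an adjusted p of 0.1988, or 0.02518 with the preparation block. Bdnf itself had 355.1, 315.2, 464.2 and 385.6 in _129S1/SvImJ_, against 277.3, 217.5, 291.9 and 298.8 in DBA/2J. Its difference was 0.48 ± 0.21 (SE, adjusted p = 0.6081), with every array of _129S1/SvImJ_ above every array of DBA/2J, as was true of 730 of the 7453 tested probe sets in one direction or the other (9.79%).

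The other plasticity genes with the largest differences short of the threshold are given by their group. Among kinases and calcium channels, Braf, a kinase of the MAPK cascade, and Itpr2 and Ryr2, calcium release channels of the endoplasmic reticulum, lay at 0.76 ± 0.51, 0.78 ± 0.43 and -0.57 ± 0.35 (SE). Among synaptic adhesion and receptor clustering genes, Ncam1, Efnb3 and Nptx1 lay at 0.48 ± 0.21, 0.36 ± 0.18 and 0.33 ± 0.26 (SE). The receptors Ntrk3, for neurotrophin-3, and Cntfr, for ciliary neurotrophic factor, lay at 0.54 ± 0.28 and 0.67 ± 0.39 (SE). The arrays of the strains were separate for Braf and Ncam1 and overlapped for the others, and limma's adjusted p was 0.6081 to 0.9956 over all 8.

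Of the 33 tested transcription genes that respond to synaptic activity or take part in plasticity, 0 passed limma's test, and 3 had an unadjusted p under 0.05. The immediate early genes Fos and Egr1 differed by -0.64 ± 0.55 and 0.07 ± 0.21 (SE), both with an adjusted p of 0.9956. The sign turned in 1 of 24 alternatives for Fos and in 3 of 25 for Egr1. Arc had no probe set with 1 gene symbol and was not analysed here. Mef2c, a transcription factor that limits the number of excitatory synapses, had 101.9, 97.0, 105.4 and 118.2 in _129S1/SvImJ_, against 178.2, 223.7, 189.5 and 178.4 in DBA/2J. It was the plasticity gene below 0 with the largest size, at -0.86 ± 0.24 (SE), and its adjusted p was 0.1214 without and 0.01014 with the preparation block. These values are those of its brightest probe set, and of the 4 tested for Mef2c 0 were called without the block.

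**Figure D3:**
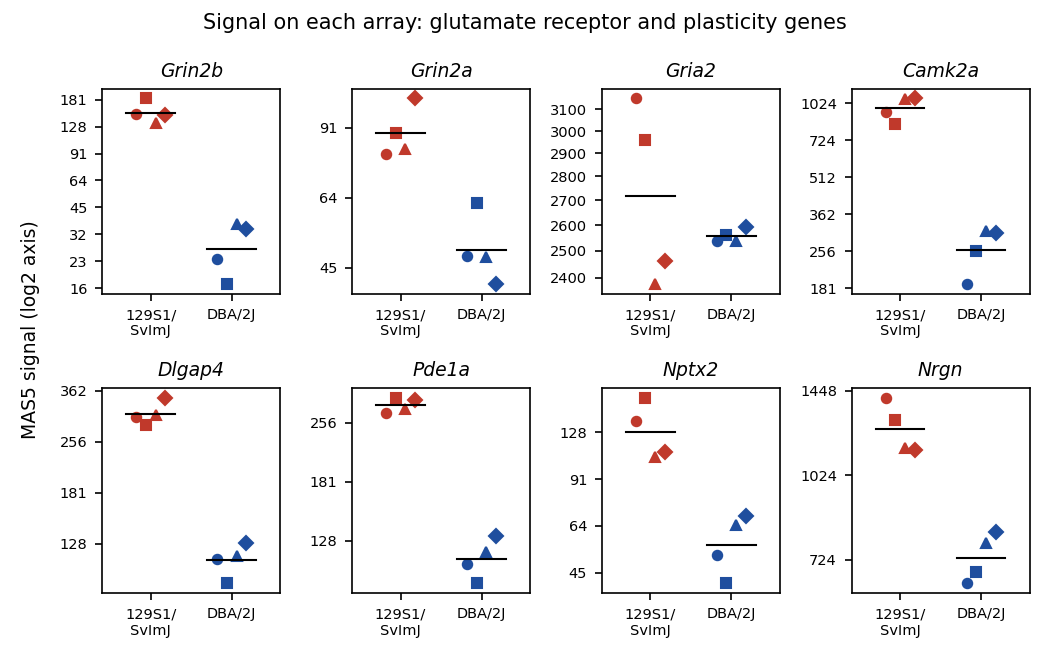
Signal on each array, on a log2 axis, for Grin2b, Grin2a, Gria2, Camk2a, Dlgap4, Pde1a, Nptx2 and Nrgn, with _129S1/SvImJ_ left of DBA/2J in each panel; symbols mark arrays 1 to 4 and the black bar is the mean of log2 signal over 2 preparations. The strains are separate in every panel except that of Gria2, where preparation 1 of _129S1/SvImJ_ lies above and preparation 2 below the DBA/2J arrays.

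The promoter windows of 4 genes with called differences, 3 of them plasticity genes and the fourth the vesicular GABA transporter described next, are shown because all 4 were higher in _129S1/SvImJ_ and RefSeq lists a single start for each. Each runs 5′ to 3′ over 250 bases before and 50 after the start, on the mouse assembly GRCm38.p6, whose sequence is that of C57BL/6J and of neither strain compared here. Capitals mark matches, on either strand, to the cAMP response element TGACGTCA or its core TGACG, the Egr site GCGTGGGCG, the TATA box TATAAA, the E-box CACGTG and the GC box GGGCGG.
Dlgap4, chr2:156720715-156721014, plus strand: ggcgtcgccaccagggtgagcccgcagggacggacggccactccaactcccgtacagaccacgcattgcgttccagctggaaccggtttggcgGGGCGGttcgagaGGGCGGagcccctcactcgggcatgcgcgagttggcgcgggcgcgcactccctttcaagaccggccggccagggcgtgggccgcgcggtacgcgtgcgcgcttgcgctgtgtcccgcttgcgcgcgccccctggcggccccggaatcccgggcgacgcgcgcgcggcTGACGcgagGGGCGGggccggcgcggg
Nrgn, chr9:37552696-37552995, minus strand: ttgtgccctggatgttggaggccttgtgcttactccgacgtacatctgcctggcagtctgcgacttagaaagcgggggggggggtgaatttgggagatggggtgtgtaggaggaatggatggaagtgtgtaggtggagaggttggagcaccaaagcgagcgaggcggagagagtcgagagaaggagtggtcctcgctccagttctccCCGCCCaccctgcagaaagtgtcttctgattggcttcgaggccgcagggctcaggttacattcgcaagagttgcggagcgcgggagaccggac
Irs2, chr8:11008880-11009179, minus strand: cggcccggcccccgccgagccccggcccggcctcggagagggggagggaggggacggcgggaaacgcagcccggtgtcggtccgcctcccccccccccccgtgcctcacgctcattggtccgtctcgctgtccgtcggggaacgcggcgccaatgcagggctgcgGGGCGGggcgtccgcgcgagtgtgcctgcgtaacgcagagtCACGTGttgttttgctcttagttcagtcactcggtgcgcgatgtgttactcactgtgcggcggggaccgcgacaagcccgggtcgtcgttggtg
Slc32a1, chr2:158610508-158610807, plus strand: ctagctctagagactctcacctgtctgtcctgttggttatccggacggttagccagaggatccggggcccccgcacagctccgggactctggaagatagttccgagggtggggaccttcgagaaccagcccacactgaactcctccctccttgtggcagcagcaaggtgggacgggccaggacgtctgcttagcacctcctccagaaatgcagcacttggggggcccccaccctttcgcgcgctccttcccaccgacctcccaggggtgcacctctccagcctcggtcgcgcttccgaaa
The Dlgap4 window held 3 GC boxes and 1 copy of the core TGACG, the Irs2 window 1 E-box and 1 GC box, and the Nrgn window 1 GC box on the reverse strand. No match to any of the 6 was in the Slc32a1 window, which says only that these letters are not in it. Of 32851 mouse promoter windows of the same length, 35.7% held a GC box, 20.8% the core TGACG, 13.6% the TATA box, 7.15% the E-box, 1.79% the full cAMP response element and 0.612% the Egr site. The core TGACG is part of the full element, so their matches overlap.

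Among genes of inhibitory transmission the vesicular GABA transporter Slc32a1, which loads GABA and glycine into synaptic vesicles, was higher in _129S1/SvImJ_. It had 499.4, 462.7, 521.9 and 558.1 in _129S1/SvImJ_, against 108.9, 95.8, 123.3 and 153.7 in DBA/2J. The lowest _129S1/SvImJ_ array lay far above the highest of DBA/2J, and the difference was 2.10 ± 0.22 (SE, 4.30-fold, limma adjusted p = 0.0001411). All 6 other strains, at 8.68 to 9.12, lay near the 8.99 ± 0.12 of _129S1/SvImJ_ and away from the 6.89 ± 0.30 of DBA/2J. Gad1, an enzyme that makes GABA, had 784.0, 862.6, 895.0 and 899.8 in _129S1/SvImJ_, against 1019.4, 1020.9, 968.1 and 969.8 in DBA/2J. Its arrays were lower in _129S1/SvImJ_ without overlap, but the difference of -0.21 ± 0.14 (SE) missed the threshold (adjusted p = 0.9077), and Gad2, the other such enzyme, lay at 0.35 ± 0.31 (SE) with overlapping arrays. Slc32a1 was 1 of 13 tested GABA genes called (background 1.24%), and their median difference was 0.196. Gabra2, a receptor subunit, did not overlap between strains, with 354.1, 464.9, 366.1 and 358.0 in _129S1/SvImJ_ and 304.0, 329.7, 164.4 and 268.5 in DBA/2J, but did not pass (0.57 ± 0.22, SE, adjusted p = 0.4729).

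Of 14 tested interneuron markers 0 passed limma's test and 2 had an unadjusted p under 0.05, against 544 of all 7453 probe sets. With the preparation block Calb2 (calretinin) and Kit passed, against 3.3% of all genes, at 0.60 ± 0.16 and -0.98 ± 0.27 (SE). Calb2 had 284.8, 318.8, 286.6 and 307.5 in _129S1/SvImJ_, against 220.0, 163.7, 201.2 and 209.7 in DBA/2J. Kit, a receptor tyrosine kinase, had 82.6, 68.7, 101.7 and 100.7 in _129S1/SvImJ_, against 184.0, 157.1, 164.6 and 186.8 in DBA/2J. Neither overlapped between strains, and they ran in opposite directions (adjusted p with the block 0.01624 and 0.002578).

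Of 33 tested genes of vesicle release 1 was called (background 1.24%), Rab3b, a small GTPase of synaptic vesicles that takes part in plasticity at inhibitory terminals. It was dim in _129S1/SvImJ_, at 14.3, 13.1, 21.0 and 33.6, against 76.0, 61.7, 100.3 and 127.4 in DBA/2J. Within each strain preparation 2 was the brighter, and the strains did not overlap. The difference was -2.21 ± 0.43 (SE, 4.61-fold, limma adjusted p = 0.01592), and the call was lost without preparation 1 of _129S1/SvImJ_ (adjusted p = 0.222) or without preparation 1 or 2 of DBA/2J (0.0509 and 0.224). With an offset of 64 the difference of Rab3b was -0.87 and passed (adjusted p = 0.004426). The median of the 33 was 0.06. With the block Stxbp2 and Syt4 were called as well (3.3% of all genes were), both lower in _129S1/SvImJ_, at -1.17 ± 0.29 and -1.07 ± 0.37 (SE).

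The largest differences lay outside these groups. Of genes lower in _129S1/SvImJ_, Arcn1, a subunit of the COPI coat of Golgi vesicles, had 4.6, 7.5, 30.3 and 4.8 in _129S1/SvImJ_, against 149.6, 148.2, 182.4 and 185.7 in DBA/2J. Array 3 of _129S1/SvImJ_ stood apart from the other 3 but still lay far below DBA/2J, and the difference was -4.30 ± 0.29 (SE, 19.7-fold, limma adjusted p = 1.397e-06). Because the _129S1/SvImJ_ signals lie where the fold depends on the offset, the size shrank to -1.61 with an offset of 64. That offset moved 23 of the 43 called differences of the named probe sets by more than 1.5-fold toward 0, an offset of 16 moved 8 and a floor of 10 moved 2. All 6 other strains were nearer to DBA/2J. Gas5, a non-coding RNA that hosts small nucleolar RNAs, had 61.8, 44.9, 66.5 and 63.9 in _129S1/SvImJ_, against 378.7, 429.3, 426.5 and 497.8 in DBA/2J. This is a difference of -2.88 ± 0.16 (SE, 7.36-fold, adjusted p = 2.345e-07), or -2.01 with an offset of 64, and the strains were wide apart on every array.

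Pdxdc1, a protein with a decarboxylase domain, was read by 3 called probe sets that disagreed in direction. The first had 5.0, 9.3, 11.4 and 6.5 in _129S1/SvImJ_, against 282.3, 289.4, 308.1 and 312.0 in DBA/2J (-5.28 ± 0.30, SE, limma adjusted p = 2.345e-07). The second had 123.1, 135.6, 150.4 and 134.9 in _129S1/SvImJ_, against 4.8, 6.6, 19.4 and 16.0 in DBA/2J (3.77 ± 0.75, SE, adjusted p = 0.02019). The third, at 1.66 ± 0.27 (SE), ran the way of the second, whose call was lost without preparation 1 or 2 of _129S1/SvImJ_ (adjusted p = 0.1109 and 0.1193) or preparation 1 of DBA/2J (0.3169). The third lost its call without preparation 1 of DBA/2J (0.07878). With an offset of 64 the first and second lay at -2.33 and 1.41. No direction can be given for the gene from these values, and the cause of the disagreement was not tested.

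Ctse, the protease cathepsin E, was lower in _129S1/SvImJ_ on both of its tested probe sets, which can read more than 1 transcript. A further probe set lay under the signal limit and was not tested. It read 1.4 to 7.9 in _129S1/SvImJ_ and 1.8 to 9.8 in DBA/2J, with overlap. The brighter tested one had 60.5, 82.9, 68.9 and 76.8 in _129S1/SvImJ_, against 449.8, 422.3, 376.2 and 395.1 in DBA/2J, with a difference of -2.51 ± 0.19 (SE, 5.71-fold, limma adjusted p = 4.782e-06). All 6 other strains lay between 6.25 and 7.30, nearer to _129S1/SvImJ_ at 6.17 ± 0.03 than to DBA/2J at 8.68 ± 0.13. Scg5, the chaperone 7B2 of a convertase that processes neuropeptide precursors, had 196.8, 234.7, 262.1 and 242.5 in _129S1/SvImJ_, against 576.8, 746.1, 592.1 and 674.4 in DBA/2J. The ranges were clearly separate (-1.47 ± 0.17, SE, adjusted p = 0.0002349). Kif5b, the heavy chain of a kinesin motor, and Clta, a clathrin light chain, were lower in _129S1/SvImJ_ by -1.78 ± 0.31 and -1.44 ± 0.23 (SE). The remaining lower genes by size were AI506816, Strap, 6330403K07Rik, Fam220a, Slc12a4 and Pdhb, at -2.55 to -1.24, together with Rab3b above and Rgs5 below. For 6330403K07Rik this counts its dim probe set, at -1.39 ± 0.32 (SE, adjusted p = 0.04876). Its bright one, with 839.8, 776.0, 797.5 and 834.6 in _129S1/SvImJ_ against 1560.2, 1852.4, 1559.9 and 1639.6 in DBA/2J, differed by -1.02 ± 0.15 (SE, adjusted p = 0.002764) and kept its call without each single preparation (adjusted p of 0.02371 to 0.04831). A second probe set of Fam220a lay at 0.30 ± 0.62 (SE), the other way. Of these, Slc12a4 is a potassium-chloride cotransporter and Pdhb a subunit of pyruvate dehydrogenase. Neither passed without preparation 1 of _129S1/SvImJ_ (adjusted p = 0.4915 and 0.3841) or without preparation 1 or 2 of DBA/2J (0.2554 to 0.3169 for Slc12a4, 0.1405 and 0.2612 for Pdhb). For Slc12a4 the difference without preparation 1 of _129S1/SvImJ_ was -0.71, against -1.30 with all preparations. Kif5b, Clta, Fam220a, the dim probe set of 6330403K07Rik and the second probe set of Ctse lost their calls without at least 1 preparation of either strain (adjusted p of 0.06932 to 0.331), among them preparation 1 of DBA/2J for all 5. With an offset of 64, AI506816, Strap, Kif5b, Fam220a, Slc12a4, the dim probe set of 6330403K07Rik and the second of Ctse lay at -1.64 to -0.595 and passed.

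Of genes higher in _129S1/SvImJ_, Thumpd1, an RNA-binding protein that aids tRNA acetylation, had 197.0, 229.3, 268.9 and 282.1 in _129S1/SvImJ_, against 46.7, 45.4, 29.4 and 40.4 in DBA/2J. The strains were separate (2.60 ± 0.25, SE, 6.07-fold, limma adjusted p = 4.905e-05). Srp9, a subunit of the signal recognition particle, had 498.8, 440.4, 497.7 and 558.6 in _129S1/SvImJ_, against 141.3, 103.8, 129.7 and 131.2 in DBA/2J (1.98 ± 0.17, SE, adjusted p = 1.653e-05). Gdpd3, a phosphodiesterase of lysophospholipids, read 94.9 to 138.8 in _129S1/SvImJ_ and was dim in DBA/2J at 9.6 to 26.7 (2.64 ± 0.28, SE, adjusted p = 0.0001411). Zfp612 and Zbtb7a, both zinc finger proteins, Nexmif, a neuronal protein of neurite growth, and the non-coding Snhg11 were higher by 1.63 to 2.35. Of these, Snhg11 and Zbtb7a lost their calls without preparation 1 of _129S1/SvImJ_ (adjusted p = 0.1042 and 0.06218), Snhg11 also without preparation 2 of DBA/2J (0.08718), and Nexmif and Zfp612 without preparation 2 of _129S1/SvImJ_ (0.1924 and 0.1687) or preparation 1 of DBA/2J (0.3306 and 0.2676), Nexmif also without preparation 1 of _129S1/SvImJ_ (0.07032). With an offset of 64, Thumpd1, Gdpd3, Snhg11, Zbtb7a and Nexmif lay at 1.56, 1.11, 1.41, 0.92 and 0.74 and passed, and Zfp612 at 0.88 did not (adjusted p = 0.05051).

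For 3 of the higher genes the probe sets of 1 gene did not agree. Ank3 encodes ankyrin G, which anchors sodium channels at the axon initial segment. Its one probe set, which can read more than 1 transcript, had 468.4, 523.9, 516.4 and 508.6 in _129S1/SvImJ_, against 111.4, 150.6, 119.8 and 121.4 in DBA/2J (2.01 ± 0.16, SE, limma adjusted p = 6.375e-06). Its other had 495.1, 492.8, 370.2 and 352.1 in _129S1/SvImJ_, against 339.5, 463.6, 333.4 and 315.5 in DBA/2J, with overlap and a difference of 0.24 ± 0.20 (SE, adjusted p = 0.9956). Ddx6, an RNA helicase of processing bodies, differed by 2.29 ± 0.30 and 2.19 ± 0.35 (SE) on 2 probe sets and by -0.26 ± 0.15 on the third, which was the brightest. The first of them lay at 1.32 with an offset of 64, and the second lost its call without preparation 2 of _129S1/SvImJ_ (adjusted p = 0.06082). Wnk1, a kinase that regulates ion cotransporters, differed by 2.86 ± 0.47 (adjusted p = 0.004919) and 2.04 ± 0.47 (adjusted p = 0.05048) on 2 dim probe sets and by -0.12 ± 0.20 on its bright one. The called probe set read 28.4, 24.2, 47.5 and 39.5 in _129S1/SvImJ_, against 6.3, 5.5, 9.6 and 1.4 in DBA/2J. Its call was lost without preparation 2 of _129S1/SvImJ_ or of DBA/2J (adjusted p = 0.08222 and 0.0792) and with only the 2 strains in the fit (0.07561). It was also lost with a floor of 10 (0.07001), and with an offset of 64, at 0.50 (0.1168). The cause of these disagreements was not tested.

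**Figure D4:**
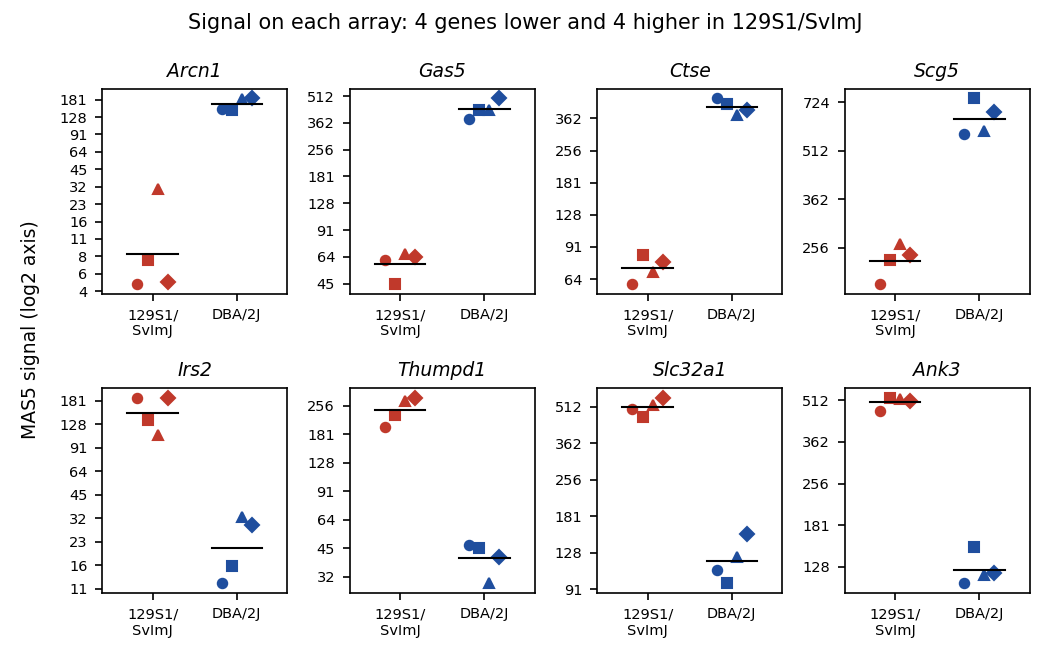
Signal on each array, on a log2 axis, for Arcn1, Gas5, Ctse, Scg5, Irs2, Thumpd1, Slc32a1 and Ank3, with _129S1/SvImJ_ left of DBA/2J; symbols mark arrays 1 to 4 and the black bar is the mean of log2 signal over 2 preparations. The first 4 are lower and the last 4 higher in _129S1/SvImJ_, and array 3 of _129S1/SvImJ_ stands apart for Arcn1. The strains do not overlap in any panel, which the rule for naming the largest differences required of every probe set shown except that of Ctse.

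Markers of hippocampal principal neurons were present in both strains, and the 20 on the array had a summed signal of 10108.5 to 11607.4 in _129S1/SvImJ_ and of 8356.5 to 9696.3 in DBA/2J, with no overlap. Of the 18 tested, 3 were called (background 1.24%), all higher in _129S1/SvImJ_. The 18 had a median difference of 0.182, with 12 above and 6 below 0, from -0.492 to 1.911. The called ones were Camk2a and Nrgn, already counted above, and Wfs1, the endoplasmic reticulum protein wolframin and a marker of CA1 pyramidal cells. The signals of all 3 are part of the summed signal, so the sum is not separate from their differences. Wfs1 had 367.2, 308.8, 446.6 and 412.7 in _129S1/SvImJ_, against 169.6, 237.3, 204.1 and 209.5 in DBA/2J. The lowest _129S1/SvImJ_ array lay above the highest of DBA/2J (0.90 ± 0.17, SE, limma adjusted p = 0.0137), and the call was lost without preparation 2 of _129S1/SvImJ_ (adjusted p = 0.169) or without preparation 1 or 2 of DBA/2J (0.141 and 0.0919). The marker of dentate granule cells Prox1 had 52.8, 38.3, 41.1 and 46.7 in _129S1/SvImJ_, against 22.2, 22.5, 24 and 28.1 in DBA/2J, with an adjusted p of 0.522. The neuronal transcription factors Neurod1 and Neurod2, at 1.17 ± 0.28 and 0.69 ± 0.23 (SE), passed only with the preparation block (adjusted p = 0.006152 and 0.01217, against 0.05761 and 0.2707 without it). The part of neuronal makeup in the differences of plasticity genes was not tested.

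The summed signals of oligodendrocyte markers were 5550.4 to 5904.3 in _129S1/SvImJ_ and 5405.6 to 5887.2 in DBA/2J, and those of astrocyte markers 14707.9 to 18338.8 in _129S1/SvImJ_ and 15959 to 16985.3 in DBA/2J, with 0 of 12 and 0 of 15 tested members called by limma, and 1 and 3 at an unadjusted p under 0.05. Markers of brain regions next to the hippocampus summed to 1043.9 to 1291.5 in _129S1/SvImJ_ and 991.5 to 1220.9 in DBA/2J, and 0 of 10 were called by limma, 0 also at an unadjusted p under 0.05, with a median difference of 0.38. Microglial markers summed to 1510.1 to 1738.5 in _129S1/SvImJ_ and 1801.7 to 1918.3 in DBA/2J, without overlap. Of 11 tested 1 was called (background 1.24%, or 3.3% with the preparation block), Ctss, the lysosomal protease cathepsin S. It had 222.1, 255.8, 289.6 and 256.3 in _129S1/SvImJ_ and 456.0, 405.6, 461.0 and 414.7 in DBA/2J. The ranges of Ctss were separate (-0.77 ± 0.15, SE, adjusted p = 0.02123). Of the 11 markers 8 had a difference below 0 and 3 above, from -0.99 to 0.31, with a median of -0.145. Over all 5660 genes 3217 lay below 0 and 2443 above, with a median of -0.045. With the preparation block C1qa, a subunit of complement C1q, was called too, with 199.4, 150.9, 191.7 and 207.7 in _129S1/SvImJ_ and 257.7, 276.8, 280.8 and 306.8 in DBA/2J (-0.59 ± 0.17, SE, adjusted p = 0.01042 with and 0.1333 without the block). Cx3cr1 and C1qc were among the 3 above 0, at 0.29 and 0.31, and the defining markers Aif1, Itgam, Ptprc and Adgre1 were under the signal limit. Leaving out any single preparation ended the call of Ctss (adjusted p 0.0667 to 0.238).

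Markers of meninges and choroid plexus were higher in sum in _129S1/SvImJ_. The 15 meningeal markers summed to 3537.1 to 3902.1 in _129S1/SvImJ_ and 2336.2 to 2786.1 in DBA/2J, and the 12 of choroid plexus to 1120.6 to 1254.5 in _129S1/SvImJ_ and 968.3 to 999.4 in DBA/2J. Of the 12 choroid plexus markers 5 were under the signal limit, and of the 7 tested 0 were called by limma, with or without the block, and 1 had an unadjusted p under 0.05. The 7 had a median difference of 0.099, with 4 above and 3 below 0. Ttr, transthyretin, the carrier that choroid plexus secretes, had 280.0, 266.1, 344.7 and 293.5 in _129S1/SvImJ_, against 155.0, 186.9, 232.0 and 256.1 in DBA/2J, without overlap (0.53 ± 0.20, SE, adjusted p = 0.4374). The meningeal sum is dominated by Ptgds, prostaglandin D synthase, which oligodendrocytes also make, and Ptgds was the 1 called of 9 tested (background 1.24%). Its 3 probe sets differed by 1.13, 1.14 and 1.15. The one with 1349.1, 1389.2, 1012.5 and 1090.9 in _129S1/SvImJ_ had 484.6, 477.9, 586.3 and 631.5 in DBA/2J, with no overlap, and it kept its call without each single preparation, whereas the others lost theirs without preparation 1 of DBA/2J (adjusted p = 0.2434 and 0.3001), among others. The part of meningeal and choroid plexus RNA in the other results was not tested. Of the endothelial and pericyte markers, 1 of 10 tested was called (background 1.24%). Rgs5, a pericyte regulator of G-protein signalling, was lower in _129S1/SvImJ_ at 28.7, 17.6, 24.2 and 24.2, against 88.5, 92.4, 94.4 and 127.0 in DBA/2J (-2.09 ± 0.37, SE, limma adjusted p = 0.007705). Its second probe set lay in the same direction at -1.24 ± 0.42 (SE, adjusted p = 0.3045). Without any 1 preparation the call of Rgs5 was lost (adjusted p of 0.05722 to 0.1005), and with an offset of 64 its difference was -0.90. The sum of the 19 markers of that list overlapped, with 665 to 895.3 in _129S1/SvImJ_ and 771.2 to 949.4 in DBA/2J.

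Of the antigen presentation genes 2 of 14 tested were called (background 1.24%), both class I heavy chains and both lower in _129S1/SvImJ_. The strains carry different haplotypes of this locus, and the probe sets can read several class I genes. H2-D1 had 110.4, 132.3, 108.5 and 105.5 in _129S1/SvImJ_, against 248.0, 304.0, 194.0 and 215.8 in DBA/2J (-1.06 ± 0.19, SE, limma adjusted p = 0.008456). H2-K1 had 115.6, 117.3, 125.0 and 135.0 in _129S1/SvImJ_, against 225.6, 191.3, 240.9 and 237.6 in DBA/2J (-0.86 ± 0.18, SE, adjusted p = 0.02588). A second probe set tested for H2-K1 lay the other way, at 0.42 ± 0.47 (SE, adjusted p = 0.9956), and a second one for H2-D1 at -0.33 ± 0.21 (SE, adjusted p = 0.9099), both with overlapping arrays. The called ones did not overlap, and DBA/2J was the bright strain, with all 6 others nearer to _129S1/SvImJ_ for both called probe sets. H2-D1 lost its call without preparation 2 of _129S1/SvImJ_ or preparation 1 of DBA/2J (adjusted p = 0.0939 and 0.2003), and H2-K1 without any single preparation (0.0893 to 0.271). Of the glutathione and glyoxal enzymes 1 of 30 was called (background 1.24%). Mgst3, a microsomal glutathione transferase, had 281.7, 288.3, 307.0 and 334.8 in _129S1/SvImJ_, against 497.8, 605.8, 705.4 and 692.6 in DBA/2J. All arrays of _129S1/SvImJ_ were lower (-1.04 ± 0.17, SE, adjusted p = 0.003937), and the call was lost without preparation 1 of _129S1/SvImJ_ or preparation 2 of DBA/2J (adjusted p = 0.0638 and 0.0792).

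The other 6 strains give a measure of which of the pair reads unlike the rest. For 11 of the 62 probe sets higher in _129S1/SvImJ_ all 6 lay nearer to _129S1/SvImJ_, and for another 23 it was 5 of 6, against 1 and 1 where 0 or 1 of the 6 did. Grin2b and Slc32a1 are among those 11. Camk2a, Dlgap4, Pde1a, Irs2, Ank3, Nexmif, Zbtb7a and Zfp612 are among the 23. For the probe sets of these named above, the strain nearer to DBA/2J was C57BL/6J, so DBA/2J did not stand alone. For the 38 probe sets lower in _129S1/SvImJ_ the other strains were split: in 11, Arcn1 and Clta among them, all 6 lay nearer to DBA/2J, and in 5 all 6 lay nearer to _129S1/SvImJ_. Over all 7453 tested probe sets, called or not, 9.45% had all 6 nearer to _129S1/SvImJ_ and 4.29% all 6 nearer to DBA/2J. Another 19.4% had 5 of 6 nearer to _129S1/SvImJ_, and 10.4% had 1 of 6. These placements are a description, since the means of the pair chose the probe sets. By its number of calls, the comparison of _129S1/SvImJ_ with DBA/2J stood 14th from the fewest among the 28 pairs of strains, tied with one other pair.

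**Figure D5:**
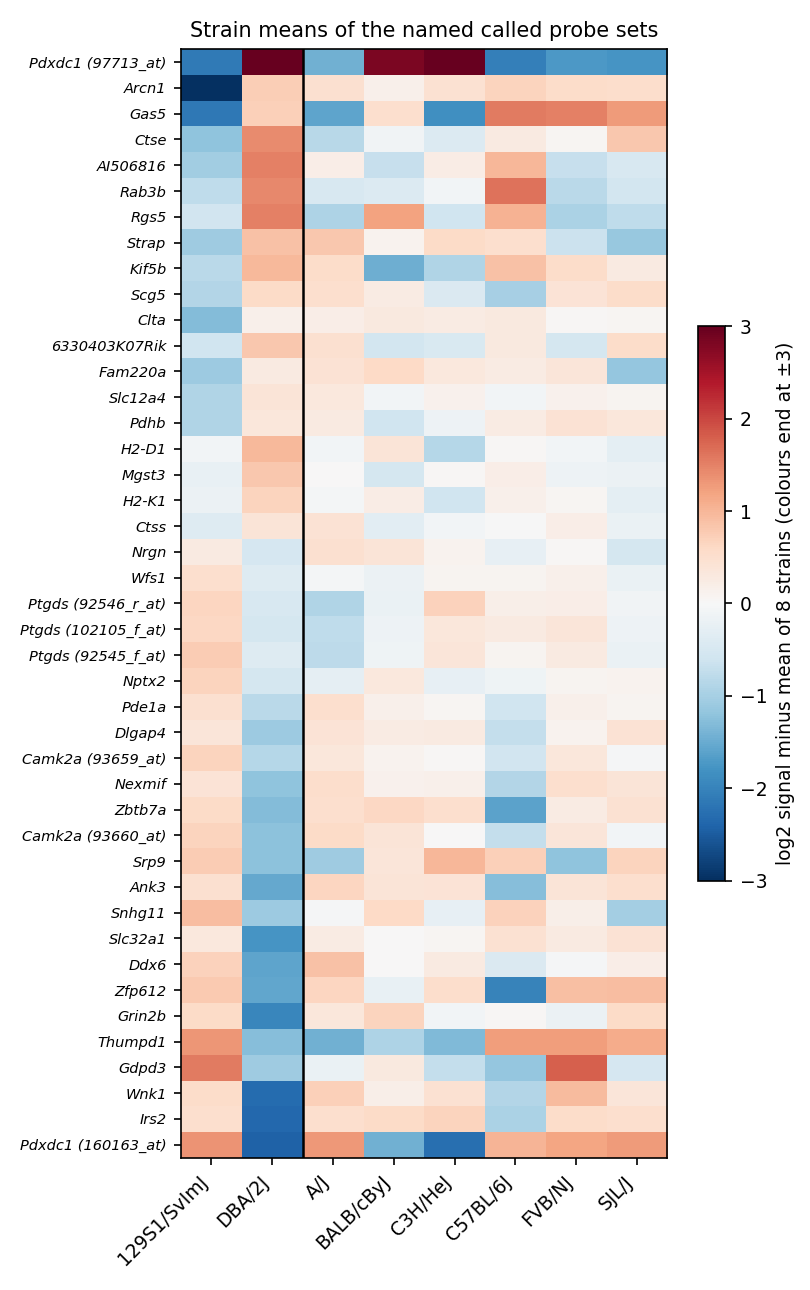
Mean log2 signal of the named called probe sets in each of the 8 strains, with _129S1/SvImJ_ and DBA/2J first, shown as the difference from the mean of all strains; colours end at 3 in either direction. DBA/2J alone is low for Grin2b and Slc32a1, and _129S1/SvImJ_ alone is low for Arcn1 and Clta.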

How the data were processed

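The authors deposited an intensity on a linear scale for each probe set of each array, computed with MAS5 per the submitters' processing notes. Neither its version nor its scaling target is given in the sources used here. Names of genes are those of the platform annotation, which listed 10833 non-control probe sets with 1 symbol and 396 with several, while 1193 had none; 10817 matched RefSeq (GRCm38.p6), which changed 0 symbols. Probe sets with several symbols named no gene. Signals under 1 were set to 1, log2 was taken, and the 60% of 12422 non-control probe sets with the highest mean over 32 arrays were tested (7453, mean signal above 21.3). The arrays of a preparation were averaged. One linear model with 8 strain means was fitted to the 16 preparation values with limma 3.58.1 in R 4.3.3 (lmFit, eBayes with a trend, 8 residual degrees of freedom), so that the spread is shared by all strains, and p-values were adjusted by Benjamini-Hochberg over all tested probe sets. The number of arrays limits the precision, and no pair of arrays held identical values.

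The members and gene lists were chosen with earlier results of these data known, and the lists carry no test of their own. The genes named were the 15 largest called differences each way whose arrays did not overlap, every called list member, the 3 largest uncalled members of each receptor and plasticity list, and a set of candidates. Grid1, Grik2, Grik5, Grin2c, Glud1, Gad1, Gad2, Gabra2, Calb2, Kit, Stxbp2, Syt4, Prox1, Neurod1, Neurod2, C1qa, Cx3cr1, C1qc and Ttr were named outside this rule, after their values were seen. Where a gene has several probe sets the one of highest mean signal stands for it in the lists, while the largest differences were chosen over all probe sets.

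The array numbers pair the samples, since the labels state that they mark the preparation. The difference between preparations 1 and 2 correlated between the strains with r = 0.47 over 7453 probe sets, and the deviations of same-numbered arrays with r of 0.151 to 0.346. On simulated data with 7453 probe sets the fit recovered 35% of 100 probe sets changed by 1 on the log2 scale and 88% of 100 changed by 2, with 4 unchanged ones called and 0 of the wrong sign. The simulated noise was independent for each preparation, with no shared preparation effect and no spread between animals, so these rates hold for that setting only. Alternatives covered the block, the strains in the fit, single arrays, normalization, offset, floor, filter, variance trend, and leaving out each array or preparation.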

Additional observations from a re-analysis of the deposited data

Results flagged for a closer look

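In 5 of 128 sets of 4 arrays of 1 strain examined for the named probe sets, 1 array stood apart from the other 3 by Dixon's criterion, which chance meets in about 1 of 20 sets. In _129S1/SvImJ_, array 2 was low for 1 of the 3 probe sets of Ptgds, at 1243.1 against 1530.9 to 1554.4 on the other arrays. In DBA/2J, array 2 was low for Pdhb, at 475.4 against 618.8 to 639.3, for Grm8, at 17.4 against 29.4 to 31.0, and for Ptgs2, an activity-induced cyclooxygenase that did not pass the test, at 7.6 against 19.2 to 22.5. In DBA/2J, array 4 was high for Ddx6, at 59.2 against 34.1 to 37.4. In the called genes Ptgds, Pdhb and Ddx6 the arrays of the strains did not overlap. For Pdhb and Ddx6 the rule for naming the largest differences required this.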

How the results depend on the processing

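Against the 100 called probe sets (62 higher and 38 lower in _129S1/SvImJ_), the replicate block on preparation number gave 261 (159 and 102), single arrays with the preparation as a random block 169 (109 and 60), and single arrays with the day as a fixed block 502 (266 and 236). The fit with the day block held no term for the preparation. It took arrays of 1 preparation as independent repeats, so its counts cannot be set beside the others as equals. With only the 2 strains in the fit, which leaves fewer degrees of freedom, 52 were called (36 and 16). Called glutamate receptors numbered 1, and 2 with the replicate block, the random block or quantile normalization and 3 with the day block. Called plasticity genes numbered 6, and 9 with the replicate block and 19 with the day block. Mef2a was added with the random block, with 40% of probe sets tested and with BALB/cByJ left out. Nptx2 and Nrgn were lost with only the 2 strains in the fit. Nrgn was also lost with median centring, without the filter, without the variance trend and with BALB/cByJ left out. Leaving out an array or a preparation gave 41 to 114 called probe sets, 29 to 71 higher and 12 to 45 lower, 1 to 2 glutamate receptors and 4 to 7 plasticity genes. Of 43 called named results 19 kept their call under every alternative run on them (24 or 25), Grin2b, Camk2a, Dlgap4, Pde1a, Irs2, Slc32a1, Arcn1 and Gas5 among them, and 24 lost it in at least 1. No called difference changed sign. Of 20 uncalled results 8 passed in at least 1 alternative and 4 changed sign. Among the 8, Ryr2, Efnb3, Bdnf, Gria3 and Itpr2 passed with the day block only. Leaving out BALB/cByJ, chosen after seeing the data, gave 101. Median centring, quantile normalization, the offsets of 16 and 64, the floor of 10, the filter and the variance trend gave 77 to 116. For 13 called probe sets the dimmer strain's mean was under the signal limit, and their folds depend on the floor and offset.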

Other observations

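Several genes outside the groups above were read alike by a pair of probe sets; they, and all others named in this paragraph and the next, were chosen after their values were seen. Rab10, a small GTPase of vesicle delivery to the plasma membrane, had 301.2, 322.3, 305.4 and 296.1 in _129S1/SvImJ_, against 104.7, 97.1, 123.3 and 122.2 in DBA/2J, and its probe sets differed by 1.46 and 1.15 on the log2 scale. Dusp8, a phosphatase that switches off stress-activated kinases, had 356.5, 327.0, 277.3 and 237.4 in _129S1/SvImJ_, against 97.1, 84.4, 119.9 and 88.5 in DBA/2J (1.62 and 1.49). The strains were separate on both. Meg3, a maternally expressed non-coding RNA, was higher in _129S1/SvImJ_ by 1.00 and 0.85, and Ghitm, a protein of the inner mitochondrial membrane, was lower by -1.17 and -0.76. Cox6c, a subunit of cytochrome c oxidase, had 1614.1, 1068.9, 1428.4 and 1133.8 in _129S1/SvImJ_, against 2471.9, 2675.5, 2673.7 and 2755.0 in DBA/2J (-1.03 ± 0.18, SE, limma adjusted p = 0.008411). Ndufa7, a subunit of complex I, had 1291.1, 1394.7, 1075.8 and 1287.1 in _129S1/SvImJ_, against 610.6, 608.5, 683.6 and 715.7 in DBA/2J (0.94 ± 0.19, SE, adjusted p = 0.02217). Of membrane proteins of neurons, the potassium channel subunit Kcnab2 was lower by -1.24 ± 0.20 and the calcium pump Atp2b2 higher by 0.99 ± 0.15 (SE).

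Among the 74 called genes, 9 formed 5 pairs that were next to each other among the 5653 tested genes with a location on a chromosome. The number of such pairs to expect by chance was not worked out, so the count is a description. Snhg11 and Slc32a1 were both higher in _129S1/SvImJ_ (2.02 and 2.10), as were Acaa1b and Acaa1a (1.82 and 0.84), a pair of similar peroxisomal thiolases whose reads on the array may not be separate. Mgst3 and Rgs5 were both lower (-1.04 and -2.09), and so were H2-K2 and H2-K1 (-2.13 and -0.86). Vps52, next to H2-K2, was higher (1.22). H2-K2 had 15.1, 24.7, 68.4 and 15.5 in _129S1/SvImJ_, against 252.2, 114.2, 64.3 and 78.8 in DBA/2J, so its arrays overlapped.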
